A study of Homo sapiens with 59 samples.

Results

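The genes described here were DAZL, DDX4, SYCP1, SYCP3, TDRD1, MAEL, PIWIL1, PIWIL2, BRDT and STAG3, autosomal genes with known roles in germ cells and meiosis. They were taken by name, not by any measured value, though earlier results of these data were known. They made up 10 of the 20007 protein-coding genes whose promoters were examined. All 10 were found in the annotation (GENCODE 44, build hg38). Each promoter was a window of 3001 bp that reached 1500 bp to either side of the transcription start site (TSS) of the canonical transcript, and each gene was also followed with 5 kb on both sides.

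Chromatin was profiled by ChIP-Rx-seq, chromatin immunoprecipitation and sequencing with a spike of mouse chromatin, in NCI-H661, an established human lung cancer line that expresses the embryonic chromatin factors DPPA2 and DPPA4. The hairpin lines shDPPA2, shDPPA4 and shDPPA2+4 carried doxycycline-inducible miR30 hairpins on PiggyBac transposons. Each was a sorted bulk population, and the double line was derived from the shDPPA2 line. For 7 days these lines received either water (H2O) or doxycycline (DOX) at 2 µg/ml, and they were profiled for H3K4me3 (replicates 1 and 2), H2AK119ub and H3K27me3 (replicates 1 and 3). Parental cells, which carry no hairpin, received DMSO or A-485 at 10 µM for 1 day. A-485 blocks histone acetylation by p300 and CBP. These cells were profiled for H3K27ac (replicates 2 and 4), H2AK119ub (replicates 3 and 4) and H3K27me3 (replicates 2, 3 and 4). SUZ12, a subunit of Polycomb repressive complex 2, was profiled in 1 library with DMSO. A line with a non-targeting hairpin was not analysed here, so an effect of doxycycline itself and an effect of the knockdown cannot be told apart.

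Of the 59 samples, 51 had a peak list, 36 from the hairpin lines and 15 from parental cells, and the other 8 were inputs. A peak was kept where its log2 fold over input was above 1 and its FDR was under 0.05. The covered length of a promoter is the number of its 3001 bp under kept peaks, and a promoter was called marked at 300 bp or more. Reads in kept peaks per library ranged from 8394879 to 19379794 for H3K4me3, from 1330926 to 4136521 for H2AK119ub and from 1085365 to 10545826 for H3K27me3 in the hairpin lines. They ranged from 390762 to 12005354 in parental cells. Several libraries stood apart. The replicate 3 H2O libraries of H3K27me3 covered 95.4, 48.8 and 76.1 Mb of the genome (shDPPA2, shDPPA4 and shDPPA2+4), against 174.6 to 319.1 Mb in the other 9. Where peaks of different libraries had the same borders, both H3K27ac libraries of replicate 4 gave the input counts of the other treatment's libraries in 100% of cases, so for replicate 4 of H3K27ac either the inputs or the labels of the treatments may be crossed, which these values cannot tell apart. The labels were kept, and with exchanged labels the H3K27ac values of replicate 4 given for DMSO and A-485 would change places. The H2AK119ub library of DMSO replicate 3 overlapped less with DMSO replicate 4 of its own mark (Jaccard index 0.0963) than with SUZ12 (0.159) and H3K27me3 (0.124 and 0.111 for replicates 2 and 3), although its closest library was H2AK119ub of A-485 replicate 3 (0.291). The index is limited by size, as replicate 4 covered 16.6 Mb and replicate 3 covered 78.2 Mb. Replicate 3 held 50.2% of the bases of replicate 4, against 45.6% of SUZ12 and 14.5 and 12.7% of H3K27me3. Conversely, replicate 4 held 10.6% of replicate 3, SUZ12 19.6% and H3K27me3 45.4 and 46.3%. The promoters of DPPA2 and DPPA4 were covered by H3K4me3 over all 3001 bp in each of the 12 libraries, which does not measure the knockdown, since the hairpins act on RNA. Of the cell type markers, 4 of 5 epithelial promoters carried H3K4me3 in every H2O library (KRT8 had none), against 0 of 4 blood promoters and 2 of 4 fibroblast promoters (COL1A1 and COL1A2).

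In germ cells these genes act at successive steps: DAZL and DDX4 bind RNA and sustain germ cell identity, the PIWI proteins with TDRD1 and MAEL silence transposons through piRNAs, SYCP3 and STAG3 belong to the meiotic chromosome axis and SYCP1 joins the paired axes, and BRDT reads acetylated histones in male germ cells. In somatic cells such promoters are known to be kept silent by DNA methylation and by the variant Polycomb complex PRC1.6, whose subunits E2F6 and MGA with MAX recognise short DNA motifs. H3K4me3 and H3K27ac mark active or poised promoters, while Polycomb repressive complex 1 deposits H2AK119ub and Polycomb repressive complex 2 deposits H3K27me3.

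The promoter windows lay at chr3:16603923-16606923 for DAZL, chr5:55736561-55739561 for DDX4, chr1:114853363-114856363 for SYCP1, chr12:101737962-101740962 for SYCP3 and chr10:114177853-114180853 for TDRD1. Those of MAEL, PIWIL1, BRDT and STAG3 lay at chr1:166987780-166990780, chr12:130336387-130339387, chr1:91947901-91950901 and chr7:100176418-100179418. Other genes started inside a pair of these windows. The TSS of GPC2 lay 537 bp upstream of that of STAG3 on the opposite strand, and the TSS of PIWIL2-DT lay 154 bp upstream of that of PIWIL2, so a peak there may belong to either gene. Further starts lay within the genes or their 5 kb flanks: ILDR2 and RNA5SP65 at MAEL, ENSG00000251368 and RNA5SP183 at DDX4, ENSG00000279343 at PIWIL1 and ENSG00000292277 at STAG3. RefSeq (GRCh38.p14) gave a promoter that began at the canonical TSS for 8 of the 10 genes, all but DDX4 and PIWIL2, and the 250 bases before the TSS were searched on both strands for CACGTG, the motif bound by MGA with MAX, and for TCCCGC or GCGGGA, which resemble the E2F motif. CACGTG was found in 4 of the 8 (TDRD1 with 2 matches, MAEL, BRDT and STAG3), while 7.99% of 14570 promoters held it. The E2F-like letters were found in 3 of the 8 (SYCP3, PIWIL1 and STAG3), against 32.8% of all promoters. No match overlapped another. The stretches given here, on the gene's strand and with the motif in capitals, are of BRDT, which was marked by H3K4me3 in every library, SYCP1 and PIWIL1, which carried Polycomb marks, and TDRD1, MAEL and DAZL, whose canonical promoters were almost bare:
BRDT: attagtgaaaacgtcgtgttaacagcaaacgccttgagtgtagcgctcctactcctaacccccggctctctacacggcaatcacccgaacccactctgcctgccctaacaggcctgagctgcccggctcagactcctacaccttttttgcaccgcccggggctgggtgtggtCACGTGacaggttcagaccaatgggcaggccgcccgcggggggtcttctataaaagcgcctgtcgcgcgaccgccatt
SYCP1: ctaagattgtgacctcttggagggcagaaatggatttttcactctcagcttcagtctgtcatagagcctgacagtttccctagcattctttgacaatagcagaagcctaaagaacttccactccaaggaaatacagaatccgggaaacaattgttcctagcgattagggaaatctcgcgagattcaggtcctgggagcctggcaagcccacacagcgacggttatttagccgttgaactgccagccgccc
PIWIL1: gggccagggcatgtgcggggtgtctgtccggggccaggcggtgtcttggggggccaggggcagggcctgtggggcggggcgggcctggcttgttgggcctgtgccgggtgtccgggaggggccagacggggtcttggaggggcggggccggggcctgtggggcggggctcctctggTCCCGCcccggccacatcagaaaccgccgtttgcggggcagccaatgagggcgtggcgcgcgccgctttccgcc
TDRD1: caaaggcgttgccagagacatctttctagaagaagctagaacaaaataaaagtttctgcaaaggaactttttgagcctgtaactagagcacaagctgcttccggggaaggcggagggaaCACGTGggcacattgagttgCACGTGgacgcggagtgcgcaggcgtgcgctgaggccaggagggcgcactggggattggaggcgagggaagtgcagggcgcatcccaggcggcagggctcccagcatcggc
MAEL: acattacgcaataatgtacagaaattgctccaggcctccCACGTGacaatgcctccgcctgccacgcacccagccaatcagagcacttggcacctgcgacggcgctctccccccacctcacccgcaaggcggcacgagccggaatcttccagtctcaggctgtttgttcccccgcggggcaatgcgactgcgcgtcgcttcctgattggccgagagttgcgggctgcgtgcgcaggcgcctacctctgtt
DAZL: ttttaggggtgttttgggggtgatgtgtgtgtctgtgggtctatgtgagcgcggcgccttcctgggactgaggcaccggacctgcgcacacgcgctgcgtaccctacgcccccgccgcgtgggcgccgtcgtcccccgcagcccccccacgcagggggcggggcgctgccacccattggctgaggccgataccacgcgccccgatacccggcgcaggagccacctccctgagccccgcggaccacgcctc

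These stretches were chr1:91949151-91949400 (plus strand) for BRDT, chr1:114854613-114854862 (plus) for SYCP1, chr12:130337637-130337886 (plus) for PIWIL1, chr10:114179103-114179352 (plus) for TDRD1, chr1:166989030-166989279 (plus) for MAEL and chr3:16605424-16605673 (minus) for DAZL. A motif match is a description of the sequence and not evidence of binding. CACGTG occurred both before BRDT, which carried H3K4me3, and before TDRD1 and MAEL, which did not.

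With water, H3K4me3 marked 3 of 10 in every H2O library (BRDT, STAG3 and DDX4), against 68.9% of all promoters. H2AK119ub marked 1 of 10 in every H2O library (STAG3), against 33.3%, and H3K27me3 marked 1 of 10 (SYCP1), against 8.72%. With DMSO, H3K27ac marked 2 of 10 in both libraries (DDX4 and BRDT), against 58.2%, and SUZ12 marked 2 of 10 (SYCP1 and PIWIL1), against 12.2%. No promoter of the 10 carried both H3K4me3 and H3K27me3 in every H2O library, the class of 6.34% of all promoters. DAZL, TDRD1 and PIWIL2 had 0 bp under a kept peak in all 51 libraries, which held for 9.65% of all promoters (1931 of 20007). A covered length of 0 says that no peak was called at this depth and not that the mark was absent.

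**Figure D1:**
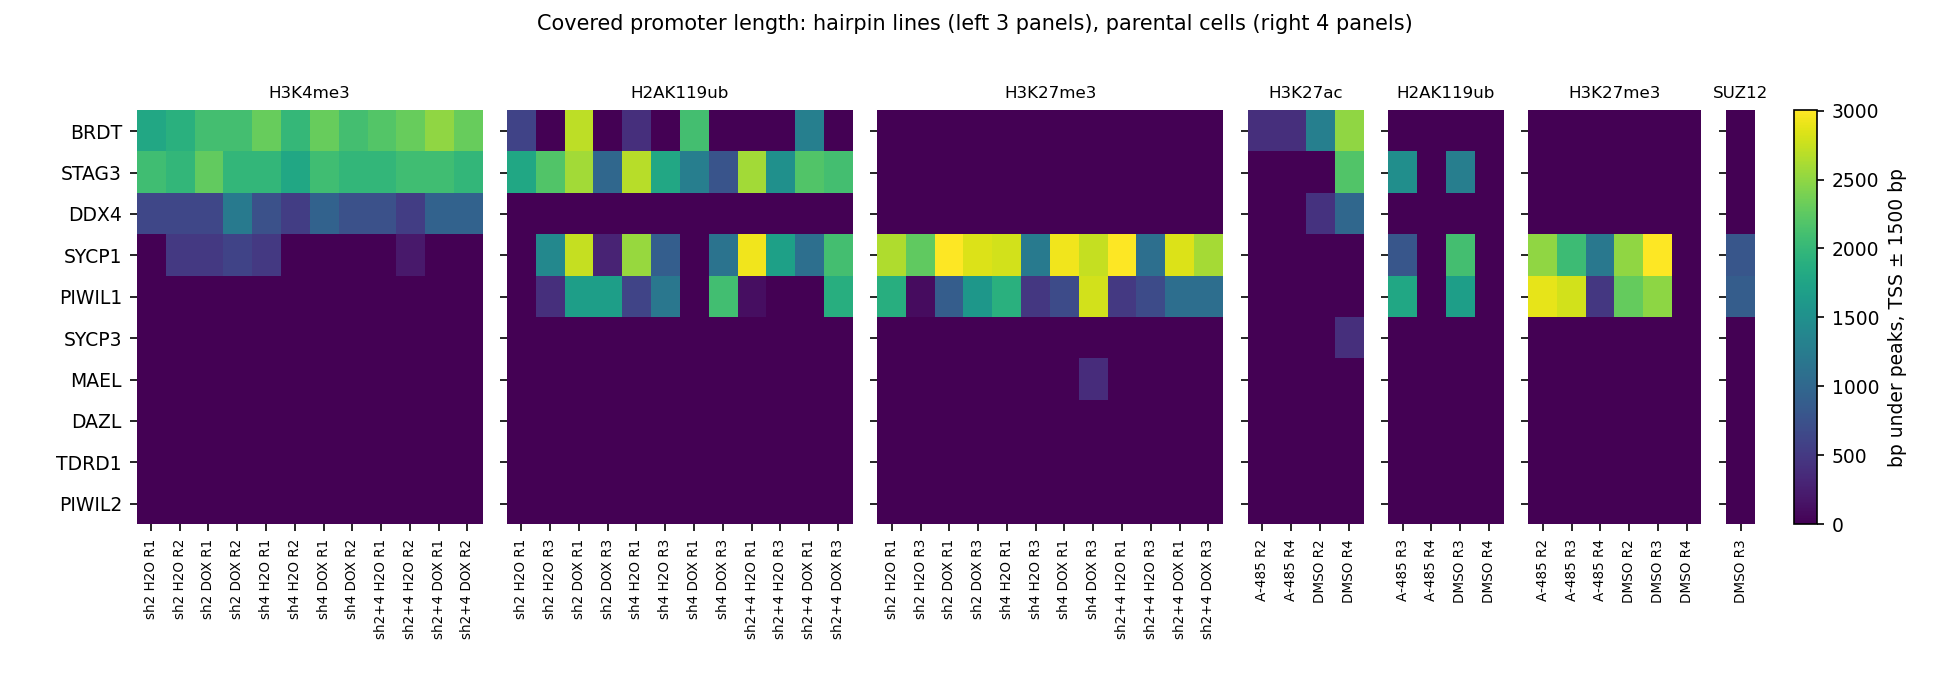
Base pairs of the promoter window (TSS ± 1500 bp) under kept peaks for each of the 10 genes (rows) in each of the 51 libraries (columns, with sh2, sh4 and sh2+4 for shDPPA2, shDPPA4 and shDPPA2+4, and R for replicate). BRDT, STAG3 and DDX4 were covered by H3K4me3 in all 12 libraries, SYCP1 and PIWIL1 by H3K27me3 in all 12, and DAZL, TDRD1 and PIWIL2 stayed at 0 throughout.

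BRDT, the bromodomain protein of the testis, had the greatest H3K4me3 cover of the 10. With water its covered length was 1800 bp at the lowest, 2100 bp at the median and 2301 bp at the highest of the 6 libraries (2084 ± 214 bp, SD), and with DOX the same values were 2100, 2200.5 and 2500 bp (2234 ± 163 bp, SD, n = 6). The groups overlapped. The peak spanned the TSS in 12 of 12 libraries, held 312 to 695 reads and had a log2 fold over input of 3.40 to 4.70. Among the 14333 promoters with any H3K4me3 with water, 25.4% had a shorter covered length than BRDT, and their median was 2502 bp.

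STAG3, a cohesin subunit of meiosis, followed with 1783, 1983 and 2083 bp (lowest, median and highest) with water and 1983, 2033 and 2283 bp with DOX. Its means, 1983 ± 109.5 bp and 2066 ± 117 bp (SD, n = 6 each), differed by less than the spread. The peak spanned the TSS in 12 of 12 libraries with 272 to 638 reads, and since the window also held the start of GPC2, it may belong to either gene.

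DDX4, the germ cell RNA helicase VASA, had a short peak placed otherwise. Its covered length was 540, 640 and 740 bp (lowest, median and highest) with water and 640, 940 and 1240 bp with DOX. The groups overlapped only from 640 to 740 bp. In none of the 12 libraries did the peak reach the TSS. It lay between -2060 and -261 bp from the TSS and held 26 to 108 reads at a log2 fold of 1.503 to 5.073. Only 3.71% of the promoters with any H3K4me3 with water had a shorter covered length. A further H3K4me3 peak lay 83040 to 84639 bp downstream of the TSS, beyond the 3′ end of DDX4, at chr5:55821101-55822700, in 12 of 12 libraries (95 to 269 reads), where the annotation held no other gene.

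**Figure D2:**
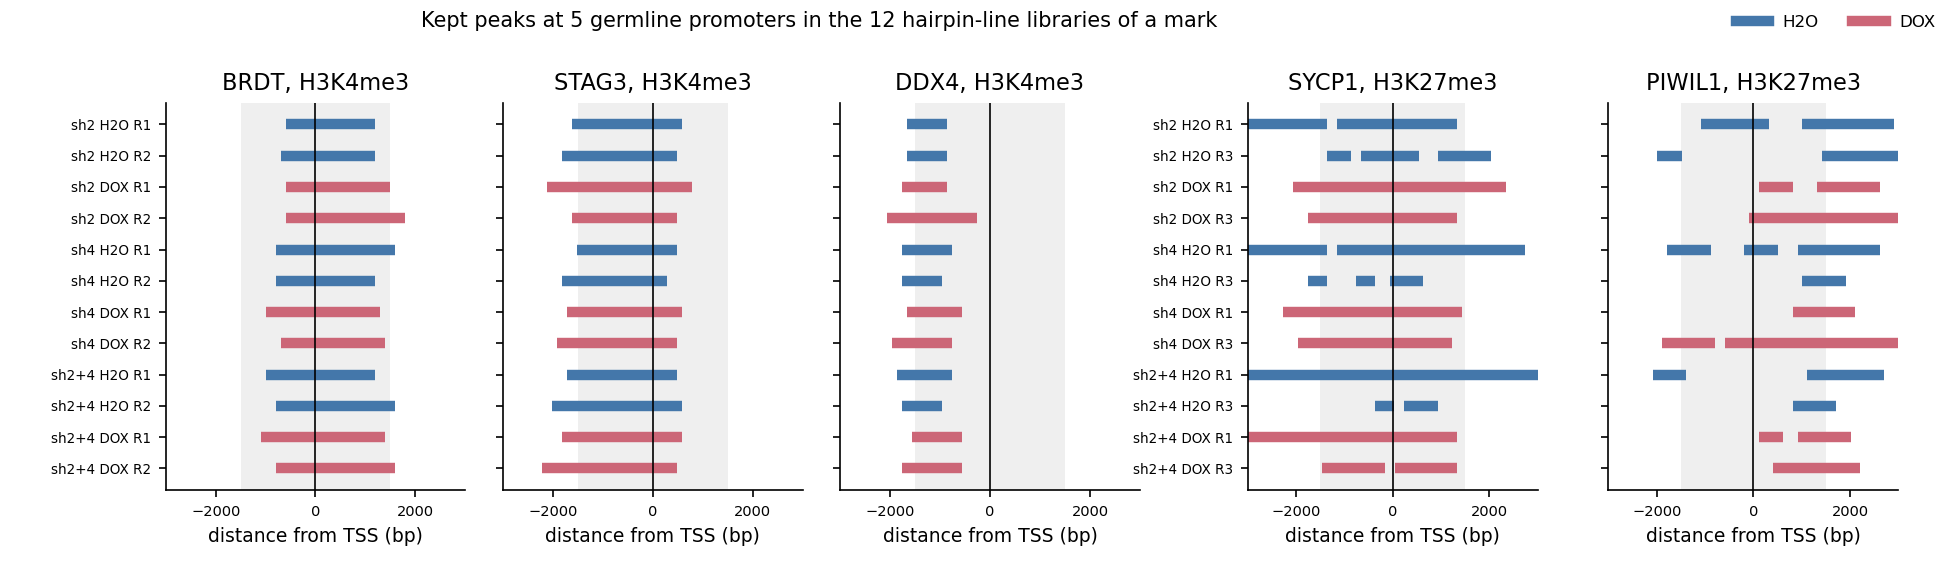
Extent of the kept peaks within 3000 bp of the TSS (horizontal axis, bp) in each of the 12 hairpin-line libraries of a mark (1 row per library, sh for shDPPA, R for replicate, H2O in blue, DOX in red), with the promoter window shaded. The H3K4me3 peaks of BRDT and STAG3 crossed the TSS in 12 of 12 libraries, that of DDX4 ended at -261 bp or farther upstream, and an H3K27me3 peak of SYCP1 crossed it in 11 libraries and one of PIWIL1 in 4.

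SYCP1, the transverse filament of the synaptonemal complex, was the promoter with the most H3K27me3. Its covered length was 1100, 2450.5 and 3001 bp (lowest, median and highest) with water and 2600, 2838 and 3001 bp with DOX. The groups overlapped, and the lowest H2O values, 1100 and 1238 bp, came from the shallow replicate 3 libraries of shDPPA2+4 and shDPPA4. A single peak crossed the TSS in 11 of 12 libraries. Of the 4282 promoters with any H3K27me3 with water, 81.6% had a shorter covered length. SYCP1 also carried H2AK119ub in 10 of 12 libraries, with 0, 1550 and 2938 bp with water and 0, 1119 and 2738 bp with DOX. A short H3K4me3 peak of 9 to 33 reads touched its promoter in 5 of 12 libraries, and 4 of these reached 300 bp (500 bp in shDPPA2 H2O replicate 2, shDPPA2 DOX replicate 1 and shDPPA4 H2O replicate 1, and 600 bp in shDPPA2 DOX replicate 2). In the same window SUZ12 covered 800 bp with 17 reads. A separate H3K4me3 peak of 12 to 48 reads lay inside the gene, 20038 to 21237 bp after the TSS at chr1:114874901-114876100, in 11 of 12 libraries.

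PIWIL1, an Argonaute protein that binds piRNAs, carried H3K27me3 and no H3K4me3. Its promoter had 101, 594 and 1901 bp of H3K27me3 (lowest, median and highest) with water and 687, 1087 and 2801 bp with DOX. The groups overlapped. An H3K27me3 peak crossed the TSS in 4 of 12 libraries. H2AK119ub covered 0, 257 and 1187 bp with water and 0, 1687 and 2087 bp with DOX, and SUZ12 covered 887 bp. In H2AK119ub the DOX libraries were split, with 0 bp in shDPPA4 and shDPPA2+4 of replicate 1 and 1687 to 2087 bp in the other 4.

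H2AK119ub was also found without H3K27me3. At STAG3 it covered 1501, 1992 and 2683 bp (lowest, median and highest) with water and 783, 1691.5 and 2583 bp with DOX. No library had H3K27me3 there, and the H2AK119ub may belong to STAG3 or to GPC2. At BRDT it reached 300 bp in 5 libraries, all of replicate 1 (600 and 400 bp in shDPPA2 and shDPPA4 with water, and 2701, 2100 and 1300 bp in shDPPA2, shDPPA4 and shDPPA2+4 with DOX), and was 0 bp in each library of replicate 3. The part of the replicate in this mark at BRDT was not tested. SYCP3, of the lateral elements of the synaptonemal complex, had a peak at its canonical promoter only for H3K27ac in DMSO replicate 4 (400 bp, 20 reads), and MAEL only for H3K27me3 in shDPPA4 DOX replicate 3 (380 bp, 22 reads).

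MAEL and DAZL have annotated starts far upstream of the canonical ones, and the account of MAEL changed with the start used. Its outermost start lies 13698 bp upstream, 42 bp from the TSS of ILDR2 on the opposite strand. There, H3K4me3 covered 1100 to 1800 bp (median 1400), H2AK119ub 1100 to 2882 bp (median 2059.5) and H3K27me3 900 to 3001 bp (median 2200.5), each in 12 of 12 libraries, and SUZ12 covered 1600 bp. All of these marks may belong to ILDR2. At the outermost start of DAZL, 64883 bp upstream, H3K27me3 reached 300 bp in 5 of 12 libraries (median 100 bp, highest 1706 bp), while H3K4me3 and H2AK119ub were at 0 in 12 of 12. Upstream of TDRD1, an H3K4me3 peak with 472 to 1142 reads lay at -7452 to -3553 bp from the TSS in 12 of 12 libraries, at the starts of CCDC186 and MIR2110.

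Over the whole gene with 5 kb on both sides, H3K27me3 reached genes whose canonical promoters were bare. With water it covered 37.3 ± 20.4% of PIWIL1, 23.7 ± 14.9% of SYCP1, 18.4 ± 12.1% of DAZL, 13.8 ± 11.4% of TDRD1 and 12.04 ± 9.95% of MAEL (SD, n = 6). Of all 20007 genes, 97.3, 94.3, 92.8, 90.7 and 89.8% respectively had less, and the median gene had 0. SYCP3, PIWIL2, BRDT and STAG3 had 0% in 12 of 12 libraries, and DDX4 had 1.83 ± 2.14%. For DAZL and MAEL the span ran from the outermost starts, 64883 and 13698 bp upstream of the canonical TSS. Once peaks were merged, the DAZL stretches with a peak in every library began at -24777, -40077, -64677 and -72577 bp from that TSS. The MAEL stretch began at -37279 bp, beyond the start of ILDR2, so its H3K27me3 may belong to ILDR2. With DOX the means were 71.7 ± 12.3% for PIWIL1, 31.7 ± 12.6% for SYCP1, 33.0 ± 9.19% for DAZL, 20.7 ± 5.71% for TDRD1 and 20.3 ± 3.86% for MAEL. The lowest H2O values were those of the shallow replicate 3 libraries, at PIWIL1 27.5, 14.1 and 19.7% in shDPPA2, shDPPA4 and shDPPA2+4. In replicate 1, PIWIL1 had 48.1, 67.6 and 47.0% with water and 72.4, 49.95 and 71.95% with DOX, so the order of treatments was not the same in each line. Covered genome and covered share moved together across these 12 libraries, and the part of depth in the share was not tested.

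**Figure D3:**
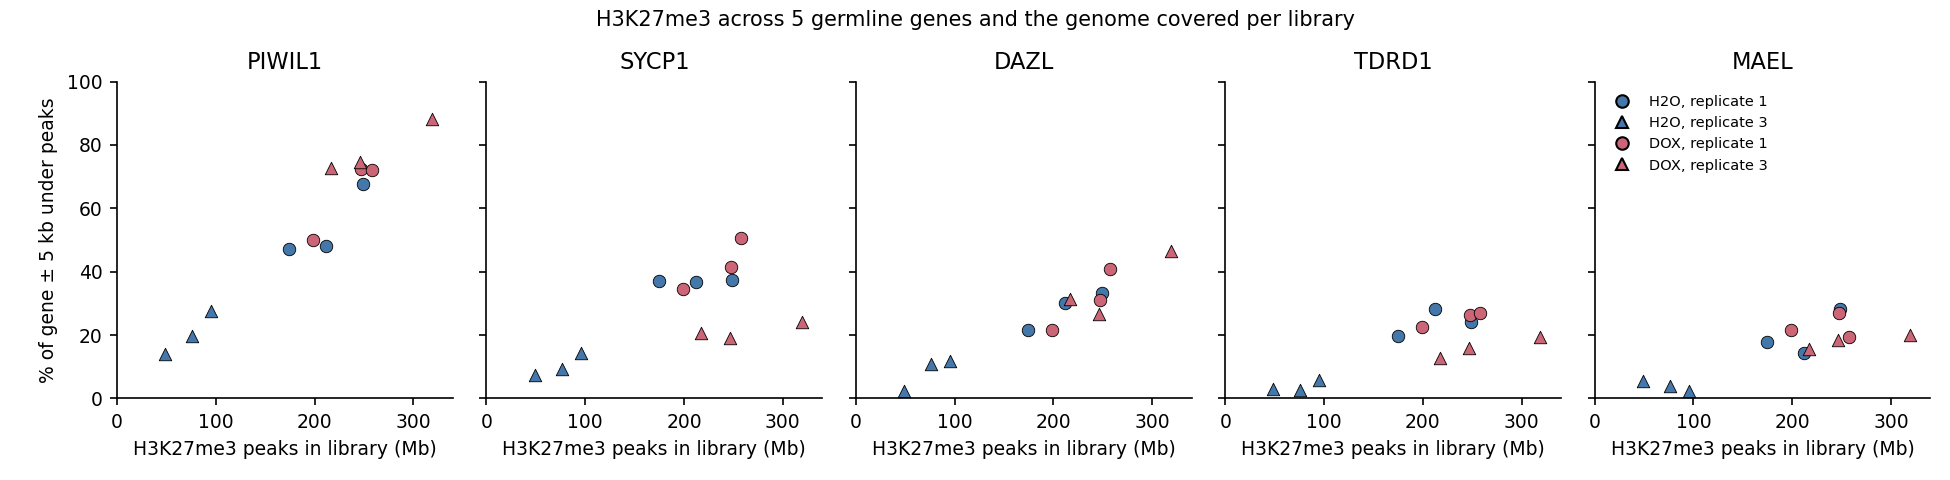
Percent of each gene with 5 kb on both sides under H3K27me3 peaks (vertical axis) against the Mb of genome under H3K27me3 peaks in the same library (horizontal axis), for 12 libraries per gene (H2O blue, DOX red, replicate 1 circles, replicate 3 triangles). The 3 H2O libraries of replicate 3 lie at 48.8 to 95.4 Mb, to the left of the other 9, and are lowest for PIWIL1, SYCP1, DAZL, TDRD1 and MAEL.

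In the count of CpG dinucleotides the marked and the bare members overlapped. In the 1001 bp around the TSS, the marked BRDT, DDX4 and STAG3 held 44, 53 and 62 CpG dinucleotides. The bare DAZL, SYCP3, MAEL, PIWIL2 and TDRD1 held 66, 67, 58, 60 and 39, and the Polycomb-marked SYCP1 and PIWIL1 held 46 and 91. Among all promoters with 60 to 79 CpGs, 91.3% carried H3K4me3 in all 12 libraries and 5.96% in none, and in that range STAG3 carried it in all 12 and DAZL, SYCP3 and PIWIL2 in none. Among those with at least 80, the range of PIWIL1, 96.6% carried it in all 12 and 2.16% in none. The ranges from 40 to 59 (DDX4, SYCP1, MAEL and BRDT) and from 20 to 39 (TDRD1) had 78.5 and 27.9% with H3K4me3 in all 12. Beside these, the promoters of the PRC1.6 and DNA methylation repressors carried H3K4me3 in every H2O library in 18 of 18 cases, and those of the somatic paralogues (BRD2, STAG1, AGO2 and others) in 15 of 15. Other meiosis genes did so in 19 of 33 cases, other genes of germ cell identity in 7 of 15 and other genes of the piRNA pathway in 6 of 19.

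**Figure D4:**
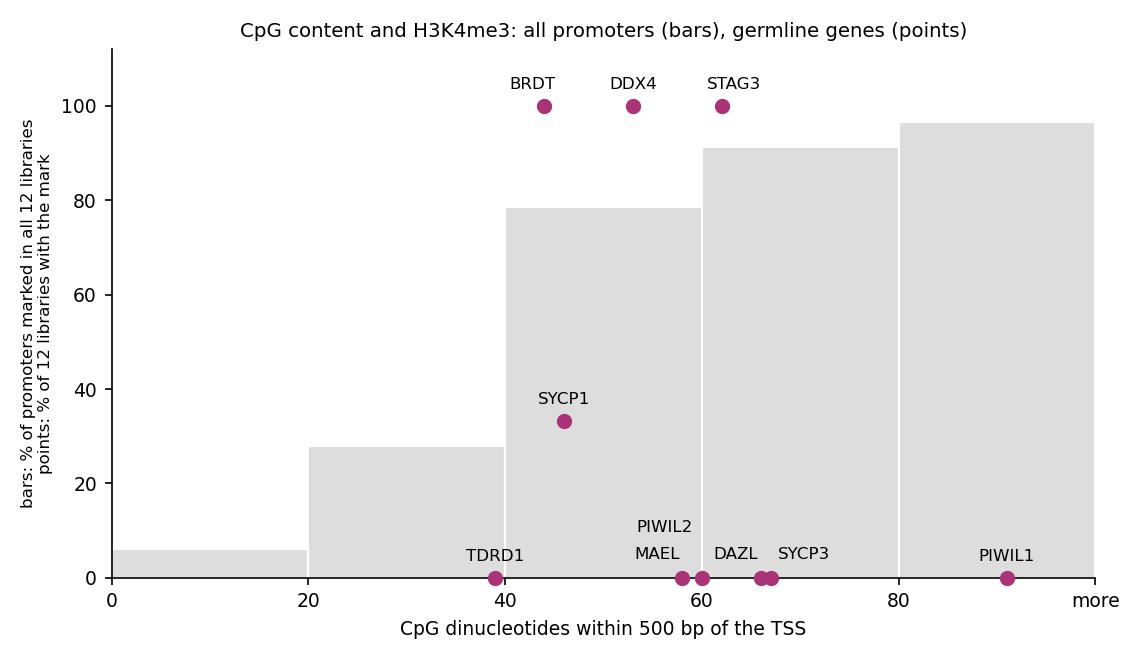
Grey bars give the percent of all promoters with H3K4me3 in all 12 hairpin-line libraries, by the number of CpG dinucleotides in the 1001 bp around the TSS (horizontal axis), and points give for each of the 10 genes the percent of its 12 libraries with the mark. BRDT, DDX4 and STAG3 sit at 100%, SYCP1 was marked in 4 of 12 libraries, and the other 6 sit at 0, among them PIWIL1 with 91 CpGs.

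The knockdown comparison asked whether loss of DPPA2, DPPA4 or both changed these marks. A promoter was called lost where it was marked in every H2O and no DOX library of a line, and gained in the reverse case, and only promoters marked in all or in none of the H2O libraries of a line could be called. For H3K4me3, 3 of the 10 germline promoters could be called lost in each line, and 6, 6 and 7 gained in shDPPA2, shDPPA4 and shDPPA2+4. Of these 0 were lost or gained, where 0.126, 0.217 and 0.151% of all promoters that could be called were. For H2AK119ub, 1, 3 and 2 could be called lost and 6, 6 and 8 gained in the same lines. The count was again 0 in each line, beside 4.85, 6.23 and 3.62% of all promoters. For H3K27me3, 1, 2 and 2 could be called lost, and 8 in each line could be called gained. The count was 0 in each line, beside 1.14, 0.683 and 0.951%. With so few members and such shares, counts of 0 lie near the background.

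The covered lengths were then compared by an exact two-sided sign-flip permutation test over the 6 pairs of DOX and H2O libraries that share a line and a replicate number. The smallest p that 6 pairs allow is 0.03125, and after Benjamini-Hochberg adjustment over all promoters tested, 0 passed for any mark (0.0% of 14442 for H3K4me3, 0.0% of 15400 for H2AK119ub and 0.0% of 4644 for H3K27me3). Even promoters at this smallest p had adjusted p of 0.828, 0.666 and 0.536 or more for these marks. No member could therefore have passed, and the adjusted test says nothing about a single promoter. DDX4 had the lowest unadjusted exact permutation p of the members. Its H3K4me3 covered length was 266.7 ± 206.6 bp (SD of 6 pairs) longer with DOX, higher in 5 of 6 pairs and equal in 1 (exact permutation p = 0.0625, adjusted p = 0.828). For BRDT the H3K4me3 difference was 150.0 ± 138.1 bp (exact permutation p = 0.125, adjusted p = 0.844), and for SYCP1 the H3K27me3 difference was 652 ± 701 bp (exact permutation p = 0.0938, adjusted p = 0.536). None passed. As reads per library total of 1000000 (RPM, here over the reads in kept peaks) the differences of BRDT, STAG3 and SYCP1 had the opposite sign (-0.970 and -1.27 for H3K4me3 at BRDT and STAG3, and -6.35 for H3K27me3 at SYCP1).

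Read counts were compared in regions made by merging the kept peaks of all libraries of a mark, where each library had a peak. The test was edgeR's quasi-likelihood test with Benjamini-Hochberg adjustment over all regions. Its batch term was the replicate number, shared by the 3 lines. A region was called at an adjusted p under 0.05 and a log2 fold change of at least 0.5 in either direction. Over the mean of the 3 lines, 0 of 7 member regions of H3K4me3 were called (0.521% of 22060 regions were), 0 of 3 of H2AK119ub (0.0% of 6161) and 0 of 12 of H3K27me3 (0.0% of 14942). In single lines 0 were called as well, beside 0.0272, 0.0363 and 0.0% of all H3K4me3 regions in shDPPA2, shDPPA4 and shDPPA2+4 and 0.0% for both other marks. At an unadjusted p under 0.05, edgeR gave 2 of the 7, 0 of the 3 and 3 of the 12 member regions, and 5924, 1327 and 3695 of all regions. DESeq2 called 0, 0 and 1 of them, the 1 being SYCP1, which was lower. Over all regions DESeq2 called 41, 400 and 1450, and for H3K27me3 5.45% of regions were called higher and 4.25% lower, so 1 of 12 lies near that background. No difference between lines was called for a member region.

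At BRDT, STAG3 and DDX4 no H3K4me3 region was called. RPM of a region is scaled to the reads in the tested regions, unlike the RPM of a promoter window. The BRDT region held 36.4 to 43.5 RPM with water and 35.8 to 40.9 with DOX, and its log2 fold change over the mean of the 3 lines was -0.03 ± 0.04 (SE, edgeR adjusted p = 0.676). The STAG3 region held 31.2 to 36.1 and 32.1 to 36.8 RPM and had a log2 fold change of -0.00 ± 0.05 (edgeR adjusted p = 0.983). The DDX4 region held 3.17 to 5.99 and 4.29 to 5.57 RPM, with a log2 fold change of 0.08 ± 0.16 (edgeR adjusted p = 0.792). All 3 pairs of groups overlapped. Since the values are relative to the reads in regions of each library, a change shared by the whole genome would not be seen, and fewer cells with a mark and less of the mark per cell cannot be told apart.

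Of the other H3K4me3 regions, that at the starts of MAEL and ILDR2 had 7.24, 8.05, 8.29, 8.47, 10.2 and 12.1 RPM with water and 8.95, 9.03, 10.7, 11.4, 13.1 and 16.7 with DOX, higher in 6 of 6 pairs, with a log2 fold change of 0.36 ± 0.13 (SE, edgeR adjusted p = 0.0873). A region at -7617 to -5318 bp from the TSS of STAG3, which overlapped GPC2, had a log2 fold change of 0.23 ± 0.08. It was higher with DOX in 5 of 6 pairs (edgeR adjusted p = 0.0877). Neither was called.

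**Figure D5:**
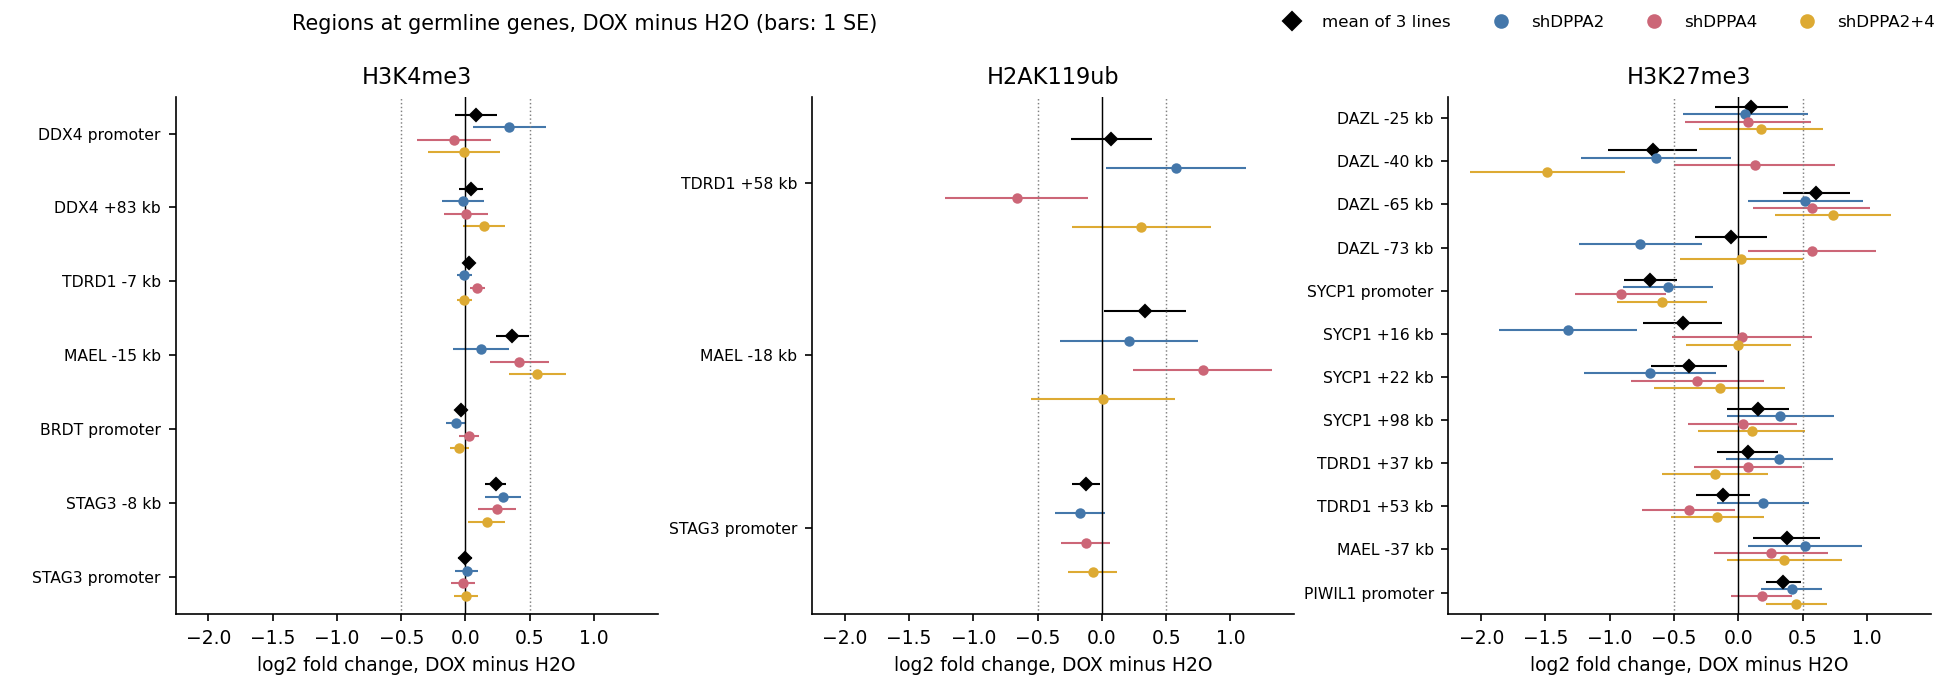
Log2 fold change of DOX over H2O (horizontal axis, bars 1 SE, from edgeR) for each region at the 10 genes, as the mean of the 3 lines (black diamonds) and in each line (coloured circles), named by gene and by the distance in kb from the TSS to its most upstream edge, with dotted lines at -0.5 and 0.5. A region labelled promoter overlaps the promoter window and can be much wider than it, as for H3K27me3 at SYCP1 and PIWIL1. Those of BRDT and STAG3 lie within 0.1 of 0 for H3K4me3 in each line. For H3K27me3 the SYCP1 region is below 0 and the PIWIL1 region above 0 in each line, with no region called.

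For the Polycomb marks, the wide regions at SYCP1 and PIWIL1 differed in opposite directions without a call. The SYCP1 region, 34500 bp across its promoter, held 143.9, 167.65 and 247.2 H3K27me3 RPM (lowest, median and highest) with water and 70.3, 115.96 and 162.0 with DOX. The 3 lowest values, 70.3, 80.8 and 85.3, were the DOX libraries of replicate 3. The log2 fold change was -0.68 ± 0.20 (SE, edgeR adjusted p = 0.113), with -0.55, -0.91 and -0.59 in shDPPA2, shDPPA4 and shDPPA2+4. It rested on replicate 3: without replicate 3 it was -0.21 (edgeR adjusted p = 0.979), and without replicate 1 it was -1.19 (edgeR adjusted p = 0.000162), where 2161 regions were called higher and 2026 lower over the genome. DESeq2 gave -0.71 (adjusted p = 0.0331). The covered length of the SYCP1 promoter went the other way, 652 bp longer with DOX.

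The PIWIL1 region, 54400 bp across the gene, held 154.0 to 194.5 H3K27me3 RPM with water and 165.0 to 290.9 with DOX. The 3 highest, 276.3, 256.8 and 290.9, were again the DOX libraries of replicate 3. In the promoter window alone, 2 measures differed in direction, each by less than its spread. The means were 6.28 ± 3.73 RPM with water and 5.83 ± 2.47 with DOX (SD, n = 6 each, over all kept peaks). The covered length was 428.7 ± 1374 bp longer with DOX (SD of 6 pairs), higher in 4 of 6 pairs. The log2 fold change of the region was 0.35 ± 0.14 (SE, edgeR adjusted p = 0.152). It was 0.10 without replicate 3 and 0.58 without replicate 1 (edgeR adjusted p = 0.993 and 0.0154). A region at -64677 to -40478 bp from the TSS of DAZL had 0.61 ± 0.26 (edgeR adjusted p = 0.181), with 0.18 and 1.12 in the same order (adjusted p = 0.99 and 0.00891). The 3 H2O libraries of replicate 3 were the shallowest of the mark, and the part of their depth in these 3 differences was not tested. For H2AK119ub at STAG3, the region held 294.1 to 355.4 RPM with water and 263.6 to 341.8 with DOX. It also covered the start of GPC2, and its log2 fold change was -0.12 ± 0.11 (edgeR adjusted p = 0.515).

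Genes on lists with related roles were called by the same rule. Each count is given out of the genes of a list that could be so called. In shDPPA2, H2AK119ub was lost at 2 of 12 meiosis genes, HORMAD2 and DMC1, and gained at 1 of 17, REC114. In shDPPA4 it was lost at MND1 (1 of 7 meiosis genes), TDRD12 and EXD1 (2 of 5, piRNA pathway), RYBP (1 of 14 repressors) and AGO3 (1 of 6 paralogues). It was gained there at SYCE1 (1 of 18 meiosis genes). In shDPPA2+4 it was lost at DMC1 (1 of 9) and gained at SYCE1 (1 of 18), TDRD12 (1 of 14), NANOS2 (1 of 7) and PCGF6 (1 of 4). Of all promoters that could be called, 4.85, 6.23 and 3.62% were lost or gained in shDPPA2, shDPPA4 and shDPPA2+4. These shares take both calls together. The share lost alone or gained alone is not given, so the count of a list has no exact match over all promoters. TDRD12, a Tudor protein of the piRNA pathway, was called in opposite directions in shDPPA4 and shDPPA2+4. H3K27me3 was lost at BOLL, a relative of DAZL, in shDPPA2+4 (1 of 4 for germ cell identity), beside 0.951% of all promoters lost or gained. For H3K4me3, 0 of the 100 genes on these 5 lists were lost or gained in any line, and no region at them was called by edgeR.

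The A-485 comparison asked what inhibition of p300 and CBP did to these marks in parental cells. H3K27ac at DDX4 covered 440 and 1000 bp with DMSO (replicates 2 and 4) and 0 and 0 bp with A-485, so DDX4 was called lost. Both replicate 4 libraries behind this call carry the input counts of the other treatment. Without replicate 4 the count of members lost was 1 and without replicate 2 it was 3, and in a narrower window (500 bp to either side) it was 0. The share over all promoters is not given for these settings. In the main setting DDX4 was 1 of the 2 members that could be called lost, beside 12.4% of all promoters, and 0 members were gained, beside 0.0%. In DMSO the peak lay at -1560 to -461 bp from the TSS, upstream of the start as the H3K4me3 peak of the hairpin lines did, and held 15 and 29 reads. At this depth 15 to 29 reads give little room to see a remainder, since the A-485 libraries had 780375 and 603895 reads in kept peaks against 2709073 and 5647079 with DMSO.

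BRDT kept a shorter H3K27ac peak. It covered 1300 and 2501 bp with DMSO and 400 and 400 bp with A-485, with no overlap between the groups. The reads in the same window did overlap, at 24.7 and 16.0 RPM with DMSO and 17.9 and 19.9 with A-485 (20.4 ± 6.19 and 18.9 ± 1.37, SD, n = 2 each). In its region, 33.6 and 57.1 RPM with DMSO stood against 25.1 and 30.6 with A-485, a log2 fold change of -0.66 ± 0.49 (SE, edgeR adjusted p = 0.883). Region RPM is scaled to the reads in the tested regions and window RPM to those in all kept peaks, so the scales differ. With A-485 the same peaks of 14 and 12 reads (replicates 2 and 4) lay behind both. STAG3 (2183 bp) and SYCP3 (400 bp) had H3K27ac in DMSO replicate 4 only. That library was the deepest of the mark and is one of those with the input counts of the other treatment, and without it the BRDT log2 fold change was -0.32. By edgeR 0 of 1 member region was called for H3K27ac, beside 0.0% of 8967 regions. At an unadjusted p under 0.05 edgeR gave 662 of all regions and 0 members, and DESeq2 called 0 members.

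H2AK119ub in parental cells covered 2100 bp of SYCP1, 1687 bp of PIWIL1 and 1283 bp of STAG3 in DMSO replicate 3, and 800, 1787 and 1483 bp in A-485 replicate 3. Both libraries of replicate 4 had 0 bp at all 10 members, so 0 members could be called lost. Of the 7 that could be called gained 0 were, beside 2.65% of all promoters lost or gained. H3K27me3 covered 2500, 3001 and 0 bp of SYCP1 with DMSO and 2500, 2063 and 1200 bp with A-485 (replicates 2, 3 and 4). At PIWIL1 it covered 2287, 2487 and 0 bp with DMSO and 2887, 2801 and 487 bp with A-485. The groups overlapped at both, the lowest library being DMSO replicate 4, the shallowest of the mark with 498618 reads in kept peaks. For H3K27me3 0 members could be called lost. Of the 8 that could be called gained 0 were, beside 0.052% of all promoters lost or gained. The single member region of each mark was not called by edgeR (0.0% of 4515 H2AK119ub regions and 0.0% of 8822 H3K27me3 regions were) nor by DESeq2. At an unadjusted p under 0.05 edgeR gave 132 and 267 of all regions and 0 members. That of MAEL and ILDR2 for H2AK119ub had a log2 fold change of -0.47 ± 0.47, and that of PIWIL1 for H3K27me3 had 0.20 ± 0.27 (SE, edgeR adjusted p = 0.908 and 0.89). Of the related lists, H3K27ac was lost with A-485 at 2 of 17 meiosis promoters that could be called lost (SYCE2 and TEX12), 3 of 5 of the piRNA pathway (PIWIL3, TDRD7 and TDRKH), 1 of 4 of germ cell identity (TEX15) and 1 of 17 of the repressors (UHRF1), and at 0 of 15 somatic paralogues, where 12.4% of all promoters that could be called were lost. H2AK119ub was lost at AGO1 (1 of 2 paralogues that could be called lost). It was gained at PRDM9 (1 of 24 meiosis genes), TDRD12 (1 of 14, piRNA pathway), and MGA and WDR5 (2 of 9 repressors). The share of all promoters lost or gained was 2.65%.

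By covered length over all 51 libraries, the protein-coding gene most like DDX4 was MAGIX, with a mean absolute difference of 56.0 bp, where the median promoter differed from DDX4 by 642.8 bp. The gene most like BRDT was ZBTB40 (146 bp) and that most like STAG3 was COL9A2 (140 bp). The median promoter differed from these 2 members by 579.5 and 693.9 bp. The nearest to SYCP1 and PIWIL1 were OR4D2 and CYP11B2 (311 and 285 bp), where the median promoter differed by 1641 and 1409 bp.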

How the data were processed

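ChIP-Rx-seq peak lists from 51 of 59 samples were used. Per the labels and the study's methods, the authors trimmed reads with Trim Galore 0.6.6, aligned them to hg38 with BWA 0.7.13, separated the mouse spike-in and called domains per library with EPIC2 against an input (bins of 100 bp). SUZ12 is stated to have been called with MACS2, but its list has the columns of EPIC2. The deposited ChIP and input counts are raw reads per domain without spike-in scaling. The deposited log2 value is the fold of ChIP over input, the deposited p-value and FDR are those of the domain, and the deposited score, a rescaled log2 fold, was not tested. Replicates were called separately. The labels only number them, while the study describes them as biological, so the p-values here cover only the variation among these libraries.

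Kept peaks had an FDR under 0.05 and a log2 value over 1. Promoters were marked at 300 bp or more. Kept peaks were merged into regions, and a region needed a peak in every library and 10 reads on average. Counts were fitted with edgeR 4.0.16 (R 4.3.3, TMM, quasi-likelihood, Benjamini-Hochberg adjustment). The replicate number was a batch term, shared by the 3 lines in the hairpin fits. The study's model also held a batch term. DESeq2 1.42.0 was an alternative. A peak list gives no reads where no peak was called, so a region absent from a library was not tested. Deviations of same-numbered libraries correlated at 0.306 or more for H3K4me3, H2AK119ub and the parental marks, but at 0.149, -0.0860 and 0.305 in the 3 lines for H3K27me3. The fits were also run on counts simulated from their own means and spread, with each region present in each library. Peaks missed in shallow libraries were not part of that simulation, and its outcome is not given here. All 10 genes were named. Genes of the related lists were named where called, or among the 3 most covered of a list with water, and the most similar gene was named for members covered in at least 10 libraries. The members and lists were chosen with earlier results of these data known. Excluded genome regions of the study were not removed here.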

Additional observations from a re-analysis of the deposited data

How the results depend on the processing

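Of 232 alternatives to the main counts, 205 stayed within 1.5 times the main value, and of 236 alternatives for single genes or regions 207 kept direction and call. Many main counts were 0, and there only another 0 was taken as unchanged. With so few members, such agreement says little. Leaving the replicate block out kept 0 member regions called in each comparison, and over all regions for the mean of the lines it left 0 of 22060 called for H3K4me3 against 115 with it. For levels, a window of 500 bp on each side gave 0 members for H2AK119ub in every H2O library, 1 for H3K27ac and 1 for SUZ12 with DMSO. The outermost TSS gave 2 for H2AK119ub and 2 for H3K27me3 with water and 1 for H2AK119ub with DMSO. A log2 fold above 2 gave 1 for H3K27ac, and all deposited peaks gave 1 for H2AK119ub with DMSO. For lost or gained promoters summed over the lines, a log2 fold above 2 gave 1 gained for H3K4me3, 2 lost for H2AK119ub and 1 lost for H3K27me3, and 1 gained with A-485 for H3K27me3. The 500 bp window gave 1 gained for H2AK119ub and 0 lost for H3K27ac with A-485. A mark at 1000 bp gave 1 gained for H2AK119ub and 1 for H3K27me3, where the outermost TSS also gave 1. Leaving out 1 replicate number gave 0 to 1 lost and 0 to 1 gained for H3K4me3 (1 without replicate 2), 0 to 2 lost (2 without replicate 3) and 1 to 3 gained (3 without replicate 3) for H2AK119ub, 0 to 2 gained for H3K27me3 (2 without replicate 1), and 1 to 3 lost for H3K27ac with A-485 (3 without replicate 2). Member regions called were 1 for H2AK119ub and 3 for H3K27me3 without replicate 1 and 0 for both without replicate 3, and 1 for H3K27me3 with DESeq2. Over all regions, edgeR without replicate 1 called 280, 2351 and 4187 for H3K4me3, H2AK119ub and H3K27me3, without replicate 2 or 3 it called 0, and DESeq2 with both called 41, 400 and 1450. The cause was not tested. For these settings the numbers of members and regions that could be called and the shares over all promoters are not given. The member counts can therefore not be told from the background.

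Differences in covered length that changed sign were SYCP1 H3K4me3 (66.7 bp at a log2 fold above 2, 50 bp with all peaks, 0.0204 reads per 1000000, RPM), BRDT and STAG3 H3K4me3 (-0.970 and -1.27 RPM), BRDT H2AK119ub (-33.3 bp at a log2 fold above 2), SYCP1 H3K27me3 (-650.2 bp at a log2 fold above 2, -6.35 RPM) and PIWIL1 H3K27me3 (-0.450 RPM, -542.7 bp without replicate 3 against 1400 bp without replicate 1). Log2 fold changes that changed sign were -0.0855 for DDX4 and 0.0307 for STAG3 H3K4me3 without replicate 2, against 0.249 and -0.0328 without replicate 1. For H2AK119ub they were, downstream of TDRD1, -0.0642 where fewer libraries needed a peak, -0.0232 without replicate 1 and -0.197 without replicate 3. For MAEL and STAG3 they were -0.380 and 0.00843 without replicate 3, against 0.766 and -0.508 without replicate 1. Without DOX replicate 3, chosen after seeing the data, these 3 were -0.301, -0.386 and 0.00413. For H3K27me3 they were -0.109 at DAZL (-24777 bp from the TSS), 0.166 inside SYCP1 (21838 bp from the TSS) and -0.0100 at MAEL without replicate 3, against 0.276, -1.005 and 0.834 without replicate 1. At a log2 fold above 2 they were -0.615 inside TDRD1 and, with A-485, -0.0683 at PIWIL1. The edgeR fits without a replicate were not run for A-485 H3K27ac and H2AK119ub, where no residual degrees of freedom remain, and a log2 fold above 2 left 0 member regions for H2AK119ub in the hairpin lines and H3K27ac with A-485. Leaving out DMSO replicate 3 for H2AK119ub or DMSO replicate 4 for H3K27ac, both chosen after seeing the data, left 0 member regions called. Few reads lay behind some peaks, as at DDX4 (15 to 29 H3K27ac reads), SYCP1 (9 to 33 H3K4me3 reads) and MAEL (22 H3K27me3 reads), so a peak of that size may go uncalled in a shallower library.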

Other observations

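Among related genes, the promoters with the greatest covered length with water were of several kinds. For H3K4me3 they were SYCP2, PSMC3IP and MSH5 among meiosis genes (2989 ± 19.1, 2865 ± 162 and 2763 ± 163 bp, SD, n = 6), TDRKH, HENMT1 and EXD1 in the piRNA pathway, TFAP2C, PRDM1 and KIT for germ cell identity, CBX3, YAF2 and WDR5 among the repressors, and the paralogues BRD2, STAG1 and STAG2 at 3001 bp in each library. SYCP2, which encodes a partner of SYCP3 in the lateral element, thus had a covered promoter where SYCP3 had none.

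H3K27me3 was longest at DDX25, TDRD5 and ASZ1 in the piRNA pathway (2472 ± 262, 2388 ± 677 and 2074 ± 845 bp), at KIT, NOBOX and FIGLA for germ cell identity (3001 ± 0, 1205 ± 945 and 817 ± 556 bp), and at REC114, RAD21L1 and PRDM9 among meiosis genes (1184 ± 911, 614 ± 573 and 502 ± 622 bp, SD, n = 6). ZBTB16 was the single repressor with any (2818 ± 286 bp), and the paralogues had 0 bp. H2AK119ub was longest at MEIOC, BRME1 and MSH5, at DDX25, TDRD5 and TDRKH, at TFAP2C, KIT and PRDM1, at ZBTB16, DNMT3A and RNF2, and at AGO1, DAZAP1 and AGO2 in the respective lists. These values are descriptions, with no test.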
